A study of Homo sapiens with 6 samples.

Results

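The antioxidant response centred on the transcription factor NRF2 was examined through 10 genes, chosen by name with earlier results of these data known. Of these, 4 are regulators, namely NFE2L2, which encodes NRF2 itself, and KEAP1, BACH1 and MAFG. The other 6 are targets: NQO1, TXN, TXNRD1, SRXN1, PRDX1 and SQSTM1. The count table lists 57133 gene symbols, 14461 of which had enough counts to be tested, and all 10 genes were among those tested. The question was whether NRF2 and its regulators moved together with their targets when CBX8 was put back into cells that lack it.

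The cells were T98G, an established human glioblastoma line, edited with Cas9 and the guide sgCBX8 to remove CBX8. CBX8 is a chromodomain subunit of Polycomb repressive complex 1. The knockout line then received the doxycycline transactivator rtTA together with either the empty lentiviral TetOFUW vector (CBX8 KO, 3 libraries) or the same vector carrying V5-tagged wild-type CBX8 (WT CBX8 re-expression, 3 libraries). All 6 libraries therefore share the knockout, both vectors, the puromycin and hygromycin selection, and doxycycline at 1 µg/ml for 72 h. No unedited T98G library was analysed here, the study's text does not say whether the knockout line is a single clone, and the 2 stable lines were selected separately, so a difference between these lines and an effect of CBX8 cannot be told apart. The genotype label of the re-expression libraries reads "wild type", whereas their titles and the methods describe the knockout line with CBX8 restored. Whether the 3 libraries of a condition came from separate cultures is not stated, so each SD and p-value describes the spread between libraries.

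Polyadenylated RNA was sequenced, and the deposited values are raw counts per gene. Total counts were close across libraries, from 7950190 to 8659796, and precision from depth covers counting error only. CBX8 checked the labels: its counts were 96, 104 and 83 in CBX8 KO and 30372, 31408 and 27791 upon re-expression. After scaling, its level was 297 times as high upon re-expression. Without an unedited library, this level could not be compared with that of endogenous CBX8, so re-expression need not mean a return to that level. The line was rich in the mesenchymal transcripts VIM (mean CPM, the count relative to the scaled library total, of 2730 without CBX8 and 2820 with it) and CD44 (2900 and 2510). Of the 6 tested among 9 mesenchymal and glial markers, CD44 fell, and FN1 (542 and 633) and TNC (63.4 and 167) rose, whereas SOX2 and S100B had no count in any library and GFAP had 13 to 30. NES, listed with the mesenchymal markers, had only 0 to 4 counts and was too low to be tested, and the glial marker OLIG2 had 14 to 38. Of 12 markers of leukocytes, endothelium, epithelium, neurons, oligodendrocytes and hepatocytes, 11 were too low to be tested, and the neuronal gene SYP had 10 to 28 counts. Mitochondrial transcripts took 6.85 to 7.96% of counts in CBX8 KO and 5.96 to 6.99% upon re-expression, and more genes had at least 1 count upon re-expression (22208 to 22428) than in CBX8 KO (21475 to 21674). The part of these differences in the results was not tested.

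NRF2 is controlled mainly as a protein. KEAP1 binds it and hands it to the CUL3 ubiquitin ligase for destruction, and oxidants or electrophiles that modify KEAP1 let NRF2 escape, enter the nucleus and pair with a small MAF protein such as MAFG on antioxidant response elements. BACH1 competes for the same elements as a repressor, and SQSTM1 (p62), an autophagy receptor, binds KEAP1 and can take it away from NRF2. The level of NFE2L2 mRNA therefore need not follow the amount of active NRF2, and RNA counts do not measure the protein.

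The core of the antioxidant response element, TGACNNNGC, was looked for upstream of the start sites of the genes, since the targets are described as bound there. RefSeq start sites were available for 9 of the 10 genes; PRDX1 was not searched. Both strands of the 1000 bases before each start were read in hg38. The following stretches, printed 5′ to 3′ on the strand of the gene with the match in capitals, lie before starts of targets. Where the match is on the other strand it appears as its reverse complement.
NQO1: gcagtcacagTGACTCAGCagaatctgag
TXN: gcactaaaccGCTGTGTCAagctggagca
TXNRD1 first start: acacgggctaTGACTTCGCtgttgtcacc
TXNRD1 second start: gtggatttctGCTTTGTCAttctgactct
SQSTM1 first match: cagaagagcaGCAGCGTCAggaaggtgcc
SQSTM1 second match: tgaggatattGCTGAGTCAtggccaggcc
The NQO1 stretch (chr16:69726997-69727025, minus strand) begins its match 455 bases before the start and lies in an exon of the divergent transcript NQO1-DT. The TXN stretch (chr9:110257070-110257098, minus strand) begins its match 581 bases before the start, in no annotated gene. Of the TXNRD1 stretches (plus strand), chr12:104215670-104215698 lies 99 bases before a start and outside any annotated gene, and chr12:104286920-104286948 lies 102 bases before another start and in an untranslated exon of TXNRD1. The SQSTM1 stretches (plus strand) are chr5:179806540-179806568, in an exon shared by SQSTM1 and, on the other strand, MGAT4B, and chr5:179820543-179820571, in an intron of SQSTM1, which are 459 and 352 bases before 2 different starts. The NQO1 match and the second SQSTM1 match also contain the AP-1 site TGACTCA on one of the strands.

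Matches were not limited to targets. KEAP1 had 2 matches before 1 of its starts and BACH1 had 1, whereas none was found within 1000 bases upstream for NFE2L2, MAFG and SRXN1. Of all 35116 windows of this length before RefSeq starts, 31.87% held at least 1 match, so a match in these windows is common. A match describes the letters and not the binding of a factor.

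Transcript abundance set the regulators apart from most targets before any comparison of conditions. Levels were compared between genes as CPM per kilobase of the canonical transcript, averaged over the 3 CBX8 KO libraries. PRDX1, a peroxiredoxin that reduces hydrogen peroxide, was highest at 1210, followed by NQO1 at 794, TXNRD1 at 585, TXN at 508 and SQSTM1 at 382. NFE2L2 came next at 227, then KEAP1 at 24.7, MAFG at 20.3, SRXN1 at 11.6 and BACH1 at 7.28. No neighbours in this order overlapped between their library ranges in CBX8 KO, and the order was the same upon re-expression, where the lowest pair was SRXN1 (7.09 to 7.90) above BACH1 (6.61 to 6.95). All 10 genes together took 0.731 to 0.766% of counts in CBX8 KO and 0.591 to 0.620% upon re-expression.

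**Figure D1:**
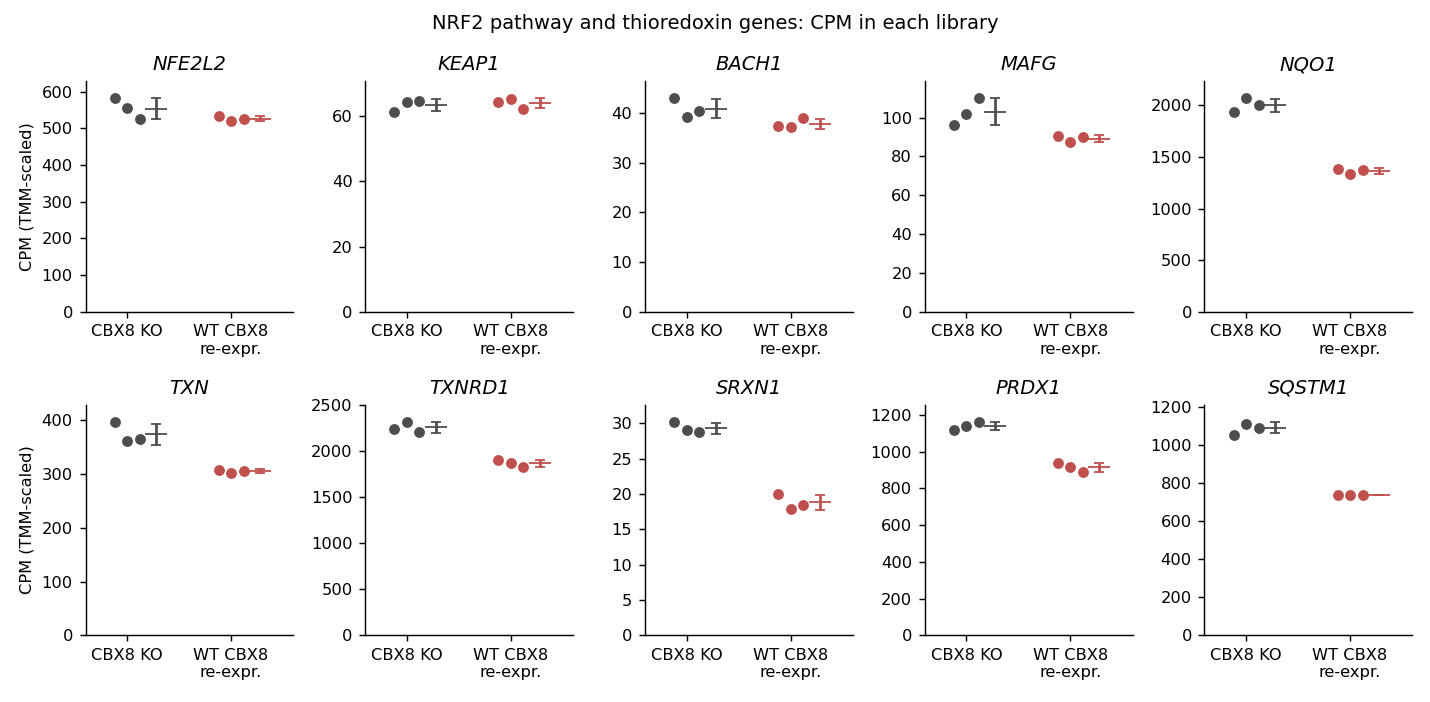
CPM (TMM-scaled counts relative to the library total, y axis from 0) of the 10 genes in each library, with CBX8 KO in grey and WT CBX8 re-expression in red; each point is 1 library and the bar beside it is the mean with the SD of 3 libraries. The 6 targets, MAFG and, narrowly, BACH1 sit lower in every re-expression library than in any CBX8 KO library, whereas NFE2L2 and KEAP1 overlap.

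Upon WT CBX8 re-expression all 6 targets fell, whereas the mRNAs of NRF2, KEAP1 and BACH1 did not pass the test. SRXN1, NQO1 and SQSTM1 fell the most, by 35.8%, 32.1% and 32.2%, and TXN, TXNRD1 and PRDX1 fell by 18.7%, 17.3% and 19.6%. Of the 4 regulators, MAFG fell, by 13.3%. In all, 7 of the 10 genes were lower and 0 were higher at a false discovery rate (FDR) under 0.05 in the quasi-likelihood test of edgeR, adjusted by the Benjamini-Hochberg method over all 14461 genes. Of all genes tested, 6.63% were called lower and 6.23% higher by the same rule. At an unadjusted p under 0.05 the counts were also 7 and 0, beside 1831 lower and 1831 higher of all 14461 genes. DESeq2 called 6 of the 10 lower and 0 higher. Fold changes below are log2 values of re-expression over CBX8 KO, and CPM were scaled by the TMM method.

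Among the regulators, NFE2L2 (chr2:177218667-177392756, minus strand) had counts of 4613, 4682 and 4101 in CBX8 KO and 4544, 4561 and 4423 upon re-expression. These correspond to 582, 556 and 525 CPM against 534, 521 and 527 CPM, and the ranges overlapped. The log2 fold change was -0.07 (SE 0.05, adjusted p = 0.38 by edgeR), with a 95% interval from -0.17 to 0.03. The interval does not reach the estimated fold change of any of the 6 targets, the smallest of which was -0.27, for TXNRD1. These estimates have errors of their own, and the 95% interval of TXNRD1 (-0.38 to -0.17) meets that of NFE2L2 at the rounded limit.

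KEAP1 (chr19:10486125-10503558, minus strand), the adaptor that targets NRF2 for degradation, had counts of 485, 541 and 506 in CBX8 KO and 547, 572 and 523 upon re-expression, or 63.4 ± 1.92 and 64.0 ± 1.57 CPM (SD, n = 3). Its libraries overlapped, and the log2 fold change was 0.01 (SE 0.06, 95% interval -0.11 to 0.14, adjusted p = 0.93 by edgeR). BACH1 (chr21:29194071-29630751, plus strand), the competing repressor, had counts of 341, 330 and 316 in CBX8 KO and 317, 325 and 328 upon re-expression. Scaled to library size, all 3 re-expression libraries (37.1 to 39.0 CPM) lay just below the CBX8 KO libraries (39.2 to 43.0 CPM). The log2 fold change of BACH1 was -0.11 (SE 0.08, 95% interval -0.27 to 0.05) and missed the threshold, with an adjusted p of 0.40 by edgeR.

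MAFG (chr17:81918270-81927735, minus strand) encodes the small MAF partner of NRF2 and has itself been described as an NRF2 target. Its counts were 764, 859 and 862 in CBX8 KO and 771, 764 and 754 upon re-expression, or 96.4, 102 and 110 CPM against 90.6, 87.3 and 89.8 CPM. The groups did not overlap, although the lowest CBX8 KO library was close to the highest re-expression library. MAFG fell by 0.21 on the log2 scale (SE 0.06, 95% interval -0.32 to -0.09, adjusted p = 0.017 by edgeR). The call was lost when some libraries were left out. The adjusted p was 0.052 without CBX8 KO replicate 2, with a log2 fold change of -0.21, 0.099 without re-expression replicate 2 (-0.19) and 0.10 without CBX8 KO replicate 3 (-0.16).

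The targets were lower in every re-expression library. NQO1 (chr16:69706996-69726668, minus strand), a quinone reductase widely used as a readout of NRF2 activity, had counts of 15338, 17403 and 15659 in CBX8 KO and 11772, 11622 and 11467 upon re-expression. This is 2000 ± 66.0 and 1360 ± 28.5 CPM (SD, n = 3), a log2 fold change of -0.56 (SE 0.05, adjusted p = 6.3e-09 by edgeR). SQSTM1 (chr5:179806398-179838078, plus strand) had counts of 8338, 9349 and 8543 against 6257, 6440 and 6179. After scaling, its re-expression libraries were almost the same, at 735, 736 and 736 CPM, below CBX8 KO libraries at 1050, 1110 and 1090 CPM. Its log2 fold change was also -0.56 (SE 0.05, adjusted p = 3.1e-09 by edgeR).

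SRXN1 (chr20:646615-653200, minus strand) encodes sulfiredoxin, which restores over-oxidized peroxiredoxins. It had the lowest counts of the 6 targets, with 239, 244 and 224 in CBX8 KO and 170, 157 and 155 upon re-expression. Its fall of 29.3 ± 0.788 to 18.8 ± 1.06 CPM (SD, n = 3) gave a log2 fold change of -0.64 with the widest interval of the 6 targets, from -0.84 to -0.44 (adjusted p = 2.8e-05 by edgeR).

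The remaining targets form the cytosolic thioredoxin system, in which TXNRD1 reduces thioredoxin (TXN) with NADPH, and thioredoxin in turn reduces peroxiredoxins such as PRDX1. TXN (chr9:110243810-110256507, minus strand) had counts of 3147, 3042 and 2851 in CBX8 KO and 2618, 2635 and 2563 upon re-expression. TXNRD1 (chr12:104215779-104350307, plus strand) had 17722, 19530 and 17286 against 16195, 16334 and 15339, and PRDX1 (chr1:45510914-45542732, minus strand) had 8858, 9558 and 9087 against 7998, 8028 and 7467. None of the 3 overlapped between conditions once scaled, as TXN went from 374 ± 19.7 to 305 ± 3.38 CPM, TXNRD1 from 2260 ± 56.7 to 1870 ± 38.7 CPM and PRDX1 from 1140 ± 22.7 to 915 ± 25.6 CPM (SD, n = 3). Their log2 fold changes were close together, at -0.30 for TXN, -0.27 for TXNRD1 and -0.32 for PRDX1 (SE 0.05 each). The adjusted p-values by edgeR were 1.1e-04, 3.0e-04 and 3.7e-05.

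**Figure D2:**
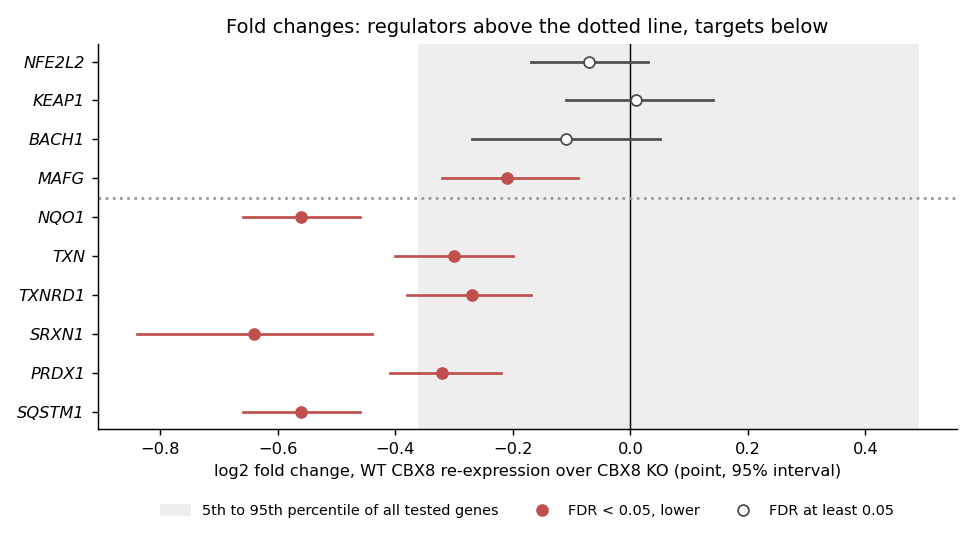
Log2 fold change (x axis, WT CBX8 re-expression over CBX8 KO) of the 4 regulators, above the dotted line, and the 6 targets, below it; points are estimates of edgeR, lines are 95% intervals, filled points have FDR under 0.05, and the grey band spans the 5th to 95th percentile of all tested genes, from -0.36 to 0.49. Of the targets, NQO1, SRXN1 and SQSTM1 lie below the band and TXN, TXNRD1 and PRDX1 inside it.

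The size of these changes was read against all 14461 genes, whose median log2 fold change was 0.0049. The median was -0.44 over the 6 targets and -0.09 over the 4 regulators. SRXN1, SQSTM1 and NQO1 stood at the 1.33, 1.87 and 1.92 percentiles of all fold changes, and PRDX1, TXN and TXNRD1 at the 6.40, 7.10 and 8.12 percentiles. MAFG was at the 12.77, BACH1 at the 24.77, NFE2L2 at the 32.71 and KEAP1 at the 51.71 percentile. For 8 of the 10 genes (the 6 targets, MAFG and BACH1) the highest re-expression library was still under the lowest CBX8 KO library, which held for 14.4% of all genes tested. The reverse order was seen for none of the 10 and again for 14.4% of all genes.

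Whether the targets moved relative to NFE2L2 was examined within each library, where the ratio of 2 counts does not depend on scaling between libraries. The count of NQO1 was 3.32, 3.72 and 3.82 times that of NFE2L2 in CBX8 KO and 2.59, 2.55 and 2.59 times upon re-expression. For SQSTM1 these ratios were 1.81, 2.00 and 2.08 against 1.38, 1.41 and 1.40, and for TXNRD1 they were 3.84, 4.17 and 4.22 against 3.56, 3.58 and 3.47. The ratio was lower in every re-expression library for all 6 targets. The log2 difference in the ratio was -0.57 for SRXN1, -0.49 for both NQO1 and SQSTM1, -0.24 for PRDX1, -0.23 for TXN and -0.20 for TXNRD1. Each gave an exact two-sided permutation p of 0.1, the smallest that 3 against 3 libraries can give (0.15 adjusted over the 9 ratios), so this design cannot take a single ratio past 0.05.

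The ratios of the other regulators to NFE2L2 overlapped between conditions. For MAFG they were 0.166, 0.183 and 0.210 in CBX8 KO against 0.170, 0.168 and 0.170 upon re-expression, a log2 difference of -0.13 (exact permutation p = 0.4, 0.45 adjusted). KEAP1 differed by 0.08 (exact permutation p = 0.4, 0.45 adjusted) and BACH1 by -0.04 (exact permutation p = 0.5, 0.5 adjusted). The CBX8 KO libraries varied more than the re-expression libraries in most of these ratios, with replicate 1 lowest for NQO1, TXNRD1, PRDX1, SQSTM1, KEAP1, MAFG and SRXN1, and its NFE2L2 value was the highest of the 6 libraries (582 CPM). Leaving out any 1 library kept the difference below 0 for each of the 6 targets, in 36 of 36 cases. This follows from the lack of overlap between conditions and adds no further support.

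**Figure D3:**
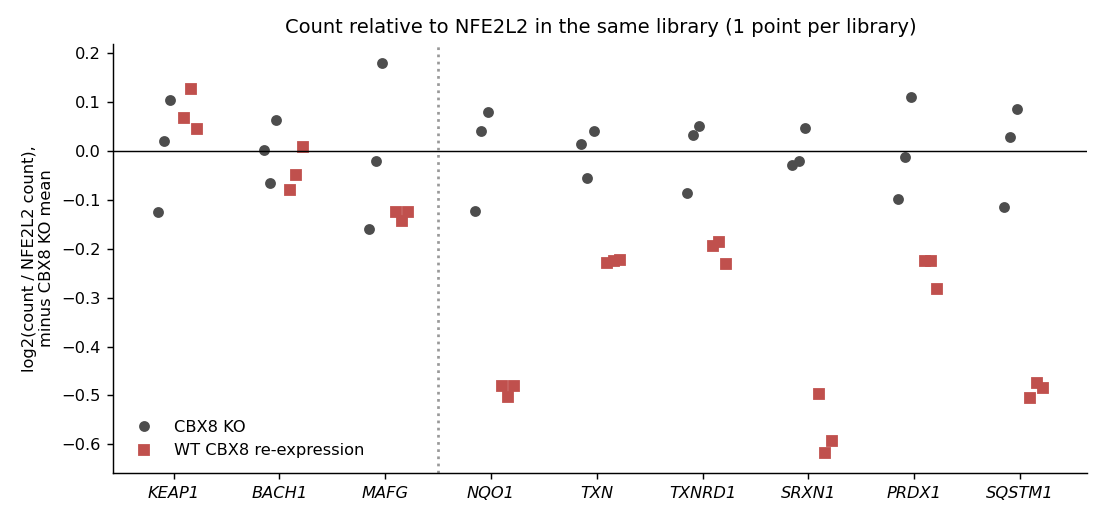
Log2 ratio of each gene's count to the NFE2L2 count in the same library, minus the mean of the CBX8 KO libraries (y axis); each circle is a CBX8 KO library, each square a WT CBX8 re-expression library, and the dotted line divides regulators from targets. The squares lie below all circles for each of the 6 targets, and overlap with the circles for KEAP1, BACH1 and MAFG.

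The 6 targets did not fall by the same amount. Ratios between them were examined after their fold changes had been seen, so the grouping given here is a description. The count of NQO1 was 1.84, 1.86 and 1.83 times that of SQSTM1 in CBX8 KO and 1.88, 1.80 and 1.86 times upon re-expression, a log2 difference of 0. TXNRD1 was 2.00, 2.04 and 1.90 times PRDX1 in CBX8 KO and 2.02, 2.03 and 2.05 times upon re-expression, a log2 difference of 0.04. In contrast, NQO1 was 0.865, 0.891 and 0.906 times TXNRD1 in CBX8 KO and 0.727, 0.712 and 0.748 times upon re-expression, a log2 difference of -0.28 (exact permutation p = 0.1, the smallest possible, and 0.17 adjusted over the 15 pairs). Every pair that joined one of NQO1, SRXN1 and SQSTM1 with one of TXN, TXNRD1 and PRDX1 was without overlap between conditions (9 of 9 pairs), and every pair within either trio overlapped (6 of 6 pairs).

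Genes that share exons with the targets bear on the reading of the counts, since the strand setting of the counting is not given in the sources used here. In GENCODE release 44, 55.70% of the canonical SQSTM1 transcript is also exon of MRNIP, a gene on the opposite strand with a role in DNA repair. MRNIP counts were 3612, 4008 and 3653 in CBX8 KO and 2688, 2946 and 2753 upon re-expression, a log2 fold change of -0.51 (SE 0.05, adjusted p = 1.5e-08 by edgeR), and its ratio to SQSTM1 stayed within 0.428 to 0.457 in all 6 libraries. For PRDX1, 38.52% of the canonical transcript is also exon of MMACHC, a vitamin B12 processing gene on the opposite strand. MMACHC counts were 3990, 4279 and 3837 in CBX8 KO and 3272, 3570 and 3277 upon re-expression, a log2 fold change of -0.35 (SE 0.05, adjusted p = 8.5e-06 by edgeR), and its ratio to PRDX1 was 0.409 to 0.450. Reads from either gene of such a pair cannot be told apart without strand, and the values of SQSTM1 and PRDX1 are uncertain to that extent.

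**Figure D4:**
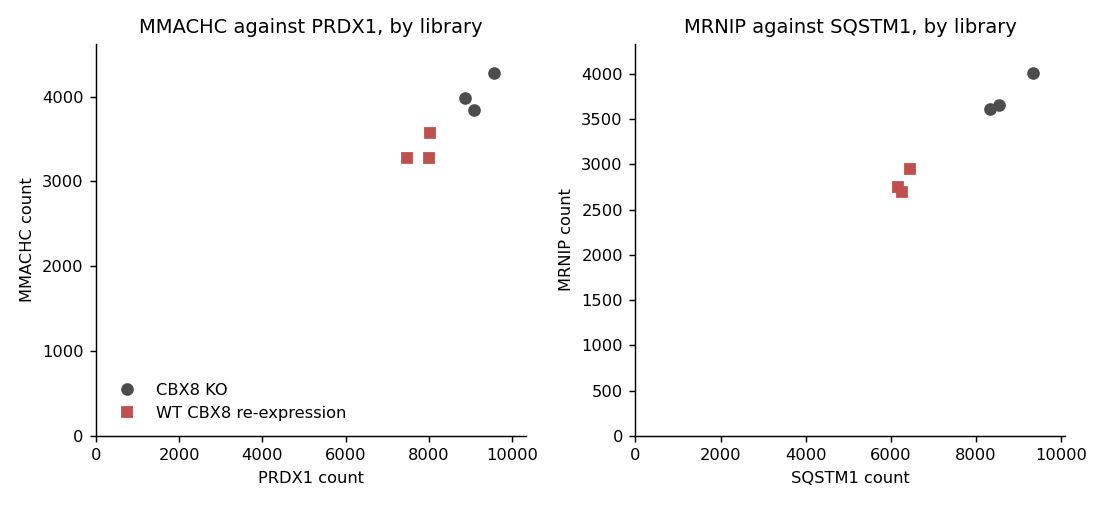
Counts of MMACHC against PRDX1 (left) and of MRNIP against SQSTM1 (right), genes on opposite strands with shared exons; each point is 1 library, circles are CBX8 KO, squares are WT CBX8 re-expression, and both axes start at 0. The opposite-strand gene has 0.409 to 0.450 (MMACHC) and 0.428 to 0.457 (MRNIP) times the count of its partner in all 6 libraries.

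Other overlaps covered less of the canonical transcript or lay with genes not listed in the count table. HNRNPA3, on the opposite strand, shares 3509 exon bases with alternative NFE2L2 exons but none with the canonical transcript. It had a log2 fold change of -0.03 (adjusted p = 0.74 by edgeR), and its count was 1.56 to 1.76 times that of NFE2L2. Whether HNRNPA3 reads entered the NFE2L2 counts was not tested. The NFE2L2 values and the ratios to NFE2L2 are uncertain to that extent. NQO1 shares 22.81% of its canonical transcript with an opposite-strand noncoding gene, and SRXN1 shares 90.66% with a readthrough gene of its own strand. How reads in these shared exons were counted is not known. The levels of NQO1 and SRXN1, and the place of SRXN1 in the order of levels, are uncertain to that extent. Processed copies had almost no counts: the PRDX1 pseudogene PRDX1P1, to which 92.2% of the bases of the PRDX1 transcript matched, had no count in any library, and no TXN pseudogene had more than 2 counts in a library. The handling of reads that match several places is not given, so these counts do not show whether such reads were left out.

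Most of the other NRF2 targets on a wider list were lower as well. Among 28 tested genes of a list of 30 other NRF2 targets, 21 fell (75%) and 0 rose, with 21 and 0 also at an unadjusted p under 0.05, none higher by DESeq2, and with a median log2 fold change of -0.46. Of all 14461 genes tested, 6.63% were called lower and 6.23% higher. At an unadjusted p under 0.05, 1831 of them were lower and 1831 higher. GCLC, the catalytic subunit of the first enzyme of glutathione synthesis, went from 231 ± 9.27 to 118 ± 2.85 CPM (SD, n = 3), a log2 fold change of -0.97 (adjusted p = 3.3e-13 by edgeR). The other 3 with the lowest adjusted p were reductases of the aldo-keto family, AKR1C2 at -1.27 (adjusted p = 1.2e-14), AKR1C1 at -1.0 (adjusted p = 1.4e-11) and AKR1B10 at -0.85 (adjusted p = 9.0e-12), although AKR1C genes are near-identical and their reads may be divided unevenly. HMOX1, the haem oxygenase that BACH1 represses, fell from 81.5 ± 3.79 to 59.3 ± 5.77 CPM, a log2 fold change of -0.46 (adjusted p = 2.3e-05 by edgeR). The 7 that missed the threshold were ABCC1, ABCC2, CBR1, CBR3, PIR, BLVRB and SLC48A1. ABCC3, a drug transporter that was called lower, was lost without re-expression replicate 2 (adjusted p = 0.073).

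Of 2 further lists of genes that act on NRF2 or beside it, no tested gene was called. The first holds 15 genes of NRF2 degradation and of KEAP1 binding, among them ligase subunits as well as DPP3 and PALB2, which compete with NRF2 for KEAP1. Its median was -0.01 on the log2 scale, and CUL3, the scaffold of the KEAP1 ligase, had 130 ± 11.1 and 127 ± 5.11 CPM (log2 fold change -0.04, adjusted p = 0.76 by edgeR). The other CNC and small MAF factors had a median of 0.08 over the 4 of 6 that were tested, with NFE2L1, which encodes the related factor NRF1, at 0.04 (adjusted p = 0.63 by edgeR) and MAFK at 0.16 (adjusted p = 0.33). In both lists 0 genes were lower and 0 higher by edgeR, by DESeq2 and at an unadjusted p under 0.05. Of all genes tested, edgeR called 6.63% lower and 6.23% higher. Against that background, 0 called among 15 or 4 genes is no result about either list.

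The list of other thioredoxin and glutaredoxin system genes also holds sestrins and methionine sulfoxide reductases. Of its 23 tested genes, 1 fell (4.35%) and 2 rose (8.70%), shares close to the 6.63% and 6.23% of all genes tested, and the median log2 fold change was -0.02. Their difference from TXN, TXNRD1 and PRDX1 was not tested. PRDX6, a peroxiredoxin that uses glutathione, fell from 332 ± 7.64 to 291 ± 10.1 CPM (log2 fold change -0.19, adjusted p = 0.0071 by edgeR). PRDX2, a cytosolic peroxiredoxin, rose from 82.3 ± 1.03 to 96.1 ± 2.15 CPM (0.22, adjusted p = 0.0061), and PRDX5 rose from 44.7 ± 1.76 to 53.1 ± 1.46 CPM (0.25, adjusted p = 0.018). Without re-expression replicate 2 all 3 calls were lost, with adjusted p of 0.057 for PRDX6, 0.055 for PRDX2 and 0.085 for PRDX5, and PRDX5 was also lost without CBX8 KO replicate 1 (0.064) or 3 (0.058) and with DESeq2 (0.13). PRDX6 was lost with scaling by library size only (0.061). PRDX4, a peroxiredoxin of the endoplasmic reticulum, had a log2 fold change of -0.19 and missed the threshold (adjusted p = 0.060 by edgeR), but passed it without re-expression replicate 1 (0.035). The mitochondrial counterparts TXN2 (-0.02, adjusted p = 0.85) and TXNRD2 (0.18, adjusted p = 0.19) and the thioredoxin inhibitor TXNIP (0.08, adjusted p = 0.35) did not pass the test.

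SQSTM1 works with other autophagy receptors and the ATG8 proteins that they bind. The list used here also holds a kinase, a scaffold protein and transcription factors of autophagy. Of its 14 tested genes, 3 rose and 0 fell, beside 6.23% and 6.63% of all genes tested, a background at which 0 of 14 lower is no result about the list. DESeq2 also called 0 lower, and the median log2 fold change was 0.06. The 1 gene lower at an unadjusted p under 0.05 was GABARAPL1, an ATG8 protein (-0.20, adjusted p = 0.078 by edgeR), which passed the threshold without CBX8 KO replicate 1 (0.038). NBR1, a receptor related to SQSTM1, rose from 105 ± 3.85 to 125 ± 1.27 CPM (0.24, adjusted p = 0.0022 by edgeR). The scaffold gene WDFY3 rose by 0.33 (adjusted p = 0.0013 by edgeR) and MAP1LC3A by 0.45 (adjusted p = 0.024). The MAP1LC3A call was lost without CBX8 KO replicate 3 (adjusted p = 0.11) and without re-expression replicate 1 (0.16) or 2 (0.072), and with DESeq2 (0.18). Of 8 tested superoxide dismutases, catalase and glutathione peroxidases, 1 fell and 1 rose (12.5% each), with a median of 0.09. Beside the 6.63% and 6.23% of all genes tested, 1 call in each direction is no result about the list. Mitochondrial SOD2 fell from 129 ± 3.52 to 104 ± 4.87 CPM (-0.32, adjusted p = 1.7e-04 by edgeR), and GPX1 rose from 138 ± 7.64 to 173 ± 11.8 CPM (0.32, adjusted p = 2.3e-04).

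**Figure D5:**
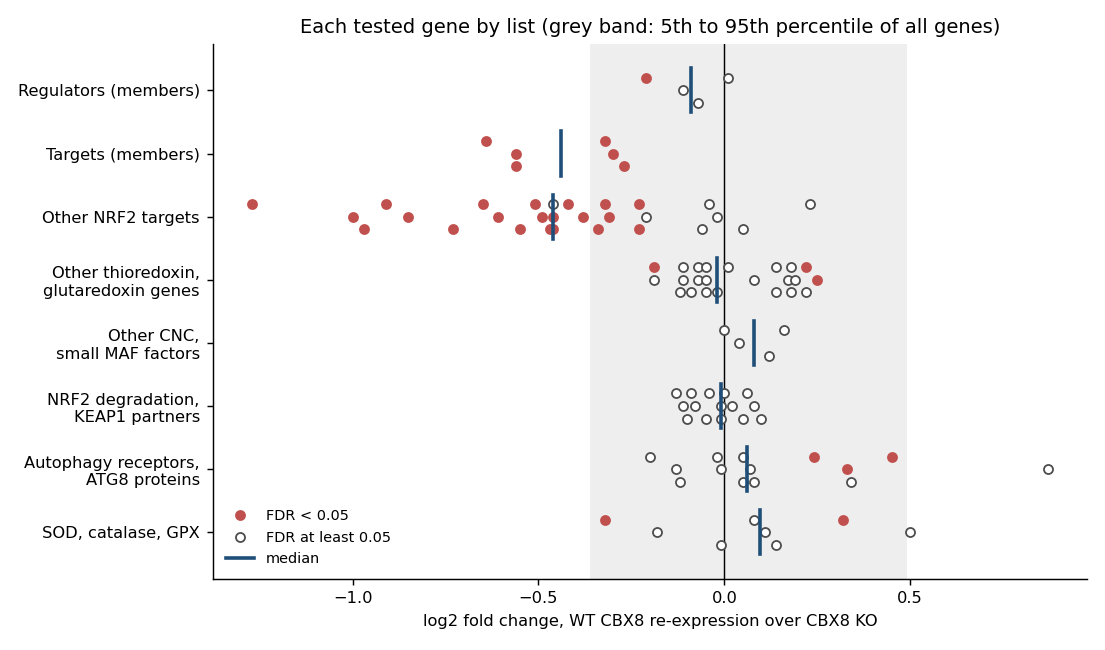
Log2 fold change (x axis, WT CBX8 re-expression over CBX8 KO) of every tested gene of 8 lists; each point is a gene, filled where FDR was under 0.05 by edgeR, blue bars are list medians, and the grey band spans the 5th to 95th percentile of all tested genes. The medians of the 6 targets (-0.44) and of the other NRF2 targets (-0.46) lie left of the band, and those of the other lists lie between -0.09 and 0.09.

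Summed over genes, the 6 targets took 6770 to 7020 CPM in the CBX8 KO libraries and 5140 to 5290 CPM upon re-expression, and the other NRF2 targets took 16000 to 16300 and 10800 to 11000 CPM. The ferritin genes FTL (mean 6380 and 4070 CPM) and FTH1 (2410 and 1740 CPM) were the largest parts of the latter sum and of its fall. The 4 regulators took 740 to 783 and 711 to 726 CPM, most of it from NFE2L2.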

How the data were processed

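The authors deposited 1 table of raw counts per gene symbol for the 6 libraries, without normalization. Per the labels and methods, 100 bp paired-end reads from a BGISEQ-500 were trimmed with Trimmomatic and aligned to hg38 with HISAT2, both named in the submitters' processing notes. How reads were counted, with which annotation and strand option, and all tool versions are not given in the sources used here. Of 57133 symbols, 29123 had no count in any library. Within a condition, libraries differed by more than sampling noise (chi-square per degree of freedom 2.06 to 3.09), so none was counted as a duplicate.

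Analysis used edgeR 4.0.16 in R 4.3.3. Low genes were removed with filterByExpr, and libraries were scaled by TMM and tested by glmQLFit and glmQLFTest with condition as the only term, with Benjamini-Hochberg adjustment and FDR < 0.05. The SE of a log2 fold change was its size over the root of the F statistic. The test was checked on simulated counts. Ratios were compared by an exact two-sided permutation over libraries. Alternatives covered scaling, filters, DESeq2 1.42.0, limma 3.58.1 voom, a stricter FDR, a replicate block, GC and length correction, and leaving out single libraries.

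The genes, lists and tests were chosen with earlier results of these data known. The text names CBX8, the 10 genes, up to 4 called genes per direction and list by lowest adjusted p, CUL3, HMOX1, TXNRD2, TXNIP, NFE2L1 and MAFK, cell type markers, and genes or pseudogenes that share sequence with the 10. The genes that missed the threshold among other NRF2 targets, ABCC3, FTL, FTH1, TXN2, PRDX4, GABARAPL1, DPP3, PALB2 and the ratios between targets were chosen after their values were seen. Gene positions and exons are from GENCODE 44. Copies were searched with minimap2 2.31, and RefSeq start sites are those of GRCh38.p14.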

Additional observations from a re-analysis of the deposited data

How the results depend on the processing

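The 6 targets were called lower in 102 of 102 cases under the 17 alternatives, and no gene of the 10 was called higher in any. The FDR < 0.01 alternative is the main fit read at a stricter threshold and not a separate fit. The number called lower was 6 or 7 under the alternatives, including 6 to 7 with each library left out in turn, and MAFG was the gene lost. Besides the libraries named above, MAFG missed the threshold with scaling by library size only (log2 fold change -0.15, adjusted p = 0.092), with DESeq2 (adjusted p = 0.059) and at FDR < 0.01; its adjusted p ranged up to 0.10. NFE2L2 lay between -0.11 and -0.02 on the log2 scale (adjusted p 0.18 to 0.87) and BACH1 between -0.14 and -0.06 (0.37 to 0.70), and neither was called in any alternative. The sign of the KEAP1 change was not stable: its log2 fold change of 0.013 became -0.001 with no low-count filter and -0.029 with the GC content and length correction, and it ranged from -0.014 to 0.029 with each library left out, with -0.003 without re-expression replicate 2. The cause was not tested.

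Other NRF2 targets called lower numbered 20 to 22. The thioredoxin and glutaredoxin calls varied more, with 0 to 2 lower and 0 to 4 higher. Library size scaling moved the median of all genes from 0.005 to 0.060 and gave 592 genes lower and 1400 higher, against 959 and 901, and DESeq2 gave 667 and 421. At FDR < 0.01 there were 569 and 489, and without re-expression replicate 2 there were 635 and 593. GC content and length were known for 87.2% of tested genes.

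Replicate numbers are shared by the conditions. Libraries with the same number did not deviate together (correlations of -0.14, -0.16 and -0.08 over 10393 genes), so the numbers were not taken to pair them. With a replicate block, 7 of the 10 genes were lower and 0 higher, and 766 and 739 of all genes.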
